A study of Homo sapiens with 6 samples.

Results

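Transcripts of 39 genes of homologous recombination, the Fanconi anaemia pathway and DNA damage signalling were followed in the human cell line ES-2, grown from an ovarian clear cell tumour, after inhibition of the microRNA miR-182. The genes were taken by symbol, with every probe annotated to 1 of them. Of the 39 genes, 35 had a named probe (59 probes) out of 18852 named genes on the array, and 32 were tested out of 12087. BRCA2, FANCA, FANCD2 and RBBP8 had no named probe in the annotation used and were not analysed here. BRIP1, FANCM and RAD50 had probes that were above background on too few arrays to be tested, and the arrays that detected them are counted with their complexes.

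The first group was transfected with an hsa-mir-182 hairpin inhibitor at a final 50 nM and the second with a negative control inhibitor based on a worm microRNA, and total RNA was taken 48 h later from both. Such an inhibitor is a chemically modified hairpin RNA that pairs with the mature microRNA, which is then not free to bind its targets. Each group held 3 arrays (inhibitor replicates 1 to 3, control replicates 1 to 3), called biological replicates in the labels, which do not say whether these were separate cultures. The p-values therefore measure the spread between these 3 and 3 samples. No concentration is given for the control inhibitor. Mimics are what the study's design text names, whereas the labels and the treatment protocol name inhibitors, and the arrays are called here by their labels. ES-2 is 1 line, so no result here extends beyond it, and no probe for miR-182 was used, so its inhibition was not read from these arrays.

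Homologous recombination repairs broken DNA by copying an intact sister chromatid. The MRN complex recognises the break, the cut ends are resected to single strands, and BRCA1, BARD1, PALB2 and BRCA2 prepare them for strand exchange. The Fanconi pathway unhooks DNA crosslinks: a core complex ubiquitinates the FANCD2-FANCI pair, and USP1 removes the mark. The kinases ATM and ATR, with CHEK1 and CHEK2 downstream, signal the damage and hold the cell cycle. BRCA1 is a reported target of miR-182, and the comparison asks whether its transcript and those of the genes it works with differ once miR-182 is inhibited. MicroRNAs can also act on translation alone, which arrays of transcripts do not measure.

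The inhibited microRNA is shown because its seed, bases 2 to 8 from the 5′ end, is the part that pairs with targets. The RefSeq table of build GRCh38.p14 holds 2370 mature microRNA names, and 1 of them, miR-182-5p itself, has this seed. With bases 2 to 7 alone, 3 share it, namely miR-182-5p, miR-96-5p and miR-1271-5p. The capitals mark bases 2 to 8 of each.
hsa-miR-182-5p: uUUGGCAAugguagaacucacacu
hsa-miR-96-5p: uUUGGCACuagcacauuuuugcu
hsa-miR-1271-5p: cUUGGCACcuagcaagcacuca
The gene of miR-182-5p lies on the minus strand of chromosome 7, with the mature bases at chr7:129770447-129770470, and miR-96-5p comes from the same chromosome and strand at chr7:129774739-129774761. No 3′ UTR sequences were used here, so sites for this seed in the members were not counted.

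Each array read 48803 probes, each from a median of 40 to 41 beads, and 41.7% to 46.0% of them were above background (detection p under 0.05). Keratin genes KRT7, KRT8 and KRT18 were above background on all 6 arrays, while the epithelial genes CDH1 and KRT19 were on none and EPCAM on 1 inhibitor and 1 control array. Among clear cell markers, ANXA4, IGFBP1, F3 and SPP1 were detected on all 6 arrays, NAPSA and GPX3 on none and PAX8 on 2 inhibitor arrays and 1 control array. Of the 5 clear cell markers tested, 0 passed the adjusted threshold in limma, while 3 (60.0%) had an unadjusted p under 0.05, against 7.65% of all genes. In the same 3 the groups did not overlap, against 13.0% of all genes. IGFBP1 differed by −0.29 ± 0.09 (adjusted p = 0.567 in limma), ANXA4 by −0.27 ± 0.09 (adjusted p = 0.602) and F3 by 0.26, each farther from 0 than any member. IGFBP1 (means 4.70 with the inhibitor and 4.99 with the control) and ANXA4 (4.79 and 5.06) were dim. The undetected NAPSA averaged 4.22 and 4.24. The groups overlapped in SPP1, which differed by −0.04, and in PAX8, by 0.07. Of other cell types, 4 of 6 endothelial markers (PECAM1, CDH5, ENG and ESAM), 2 of 6 fibroblast markers (PDGFRA and THY1) and 2 of 5 white blood cell markers (CD14 and FCER1G) were detected on all 6 arrays, while VWF, LUM, COL3A1 and PTPRC were on none. The summed linear signals of these marker lists overlapped between the groups. They were 2110 to 2234 against 2209 to 2369 for the endothelial and 654 to 751 against 644 to 725 for the fibroblast list. For the white blood cell list they were 126 to 136 against 131 to 137. The part of all these markers in the results was not tested. The RNA came from the 1 line ES-2, so detection of a marker does not show that cells of that type were present. In bulk RNA, the share of cells that express a gene and its level per cell cannot be told apart.

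No member differed past the test. Of the 32 tested, 0 were higher and 0 lower with the inhibitor at an adjusted p under 0.05 in limma (Benjamini-Hochberg over all genes), against 0 of all 12087 genes in each direction (0%). At an unadjusted p under 0.05 there were 2 members, NBN and RAD51AP1, both higher, or 6.25%, against 7.65% of all genes (3.50% higher and 4.15% lower). That count was 4 without inhibitor replicate 2, without control replicate 1, in the deposited value table and without background correction, and 0 without control replicate 3 and without normalization between arrays. The share of all genes was not counted under these alternatives, so these counts have no background beside them. The lowest adjusted p of a member was 0.602. The values of the groups did not overlap in 5 members (15.6%), against 13.0% of all genes (6.80% higher and 6.23% lower). NBN, RAD51AP1, FANCC and CHEK1 were higher and TP53BP1 was lower on every inhibitor array than on any control array. As reported, both shares lie near those of the array at large.

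Differences were small on the log2 scale, from −0.20 for FANCG to 0.20 for XRCC2, or 0.868-fold to 1.15-fold. The median absolute difference was 0.0735 in the members and 0.0651 in all genes. For all 32 members the 95% interval lay within 1.5-fold on either side of no change, as it did for 99.0% of all genes. For 23 of the 32 it also lay below a 1.2-fold rise, against 77.9% of all genes. A member's interval reached a median of 0.164 log2 units, or 1.12-fold, to each side of its estimate.

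More members lay above 0 than below. The difference was above 0 in 23 members (71.9%) and below 0 in 9, against 50.0% of all genes above 0. The median difference was 0.0446 in the members and 1.49e-05 in all genes. After scaling each array to a common median instead of quantile normalization, 18 of 32 lay above 0 and the median was 0.00837, while that of all genes was −0.0373. The distance between the medians was 0.0457 under that scaling, 0.0457 without normalization between arrays and 0.0446 as reported. Without inhibitor replicate 3 the members' median was 0.0182 with 19 of 32 above 0, and without inhibitor replicate 1 it was 0.0711 with 24 above 0. No test was made of the list, and nothing particular to it follows from these counts.

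**Figure D1:**
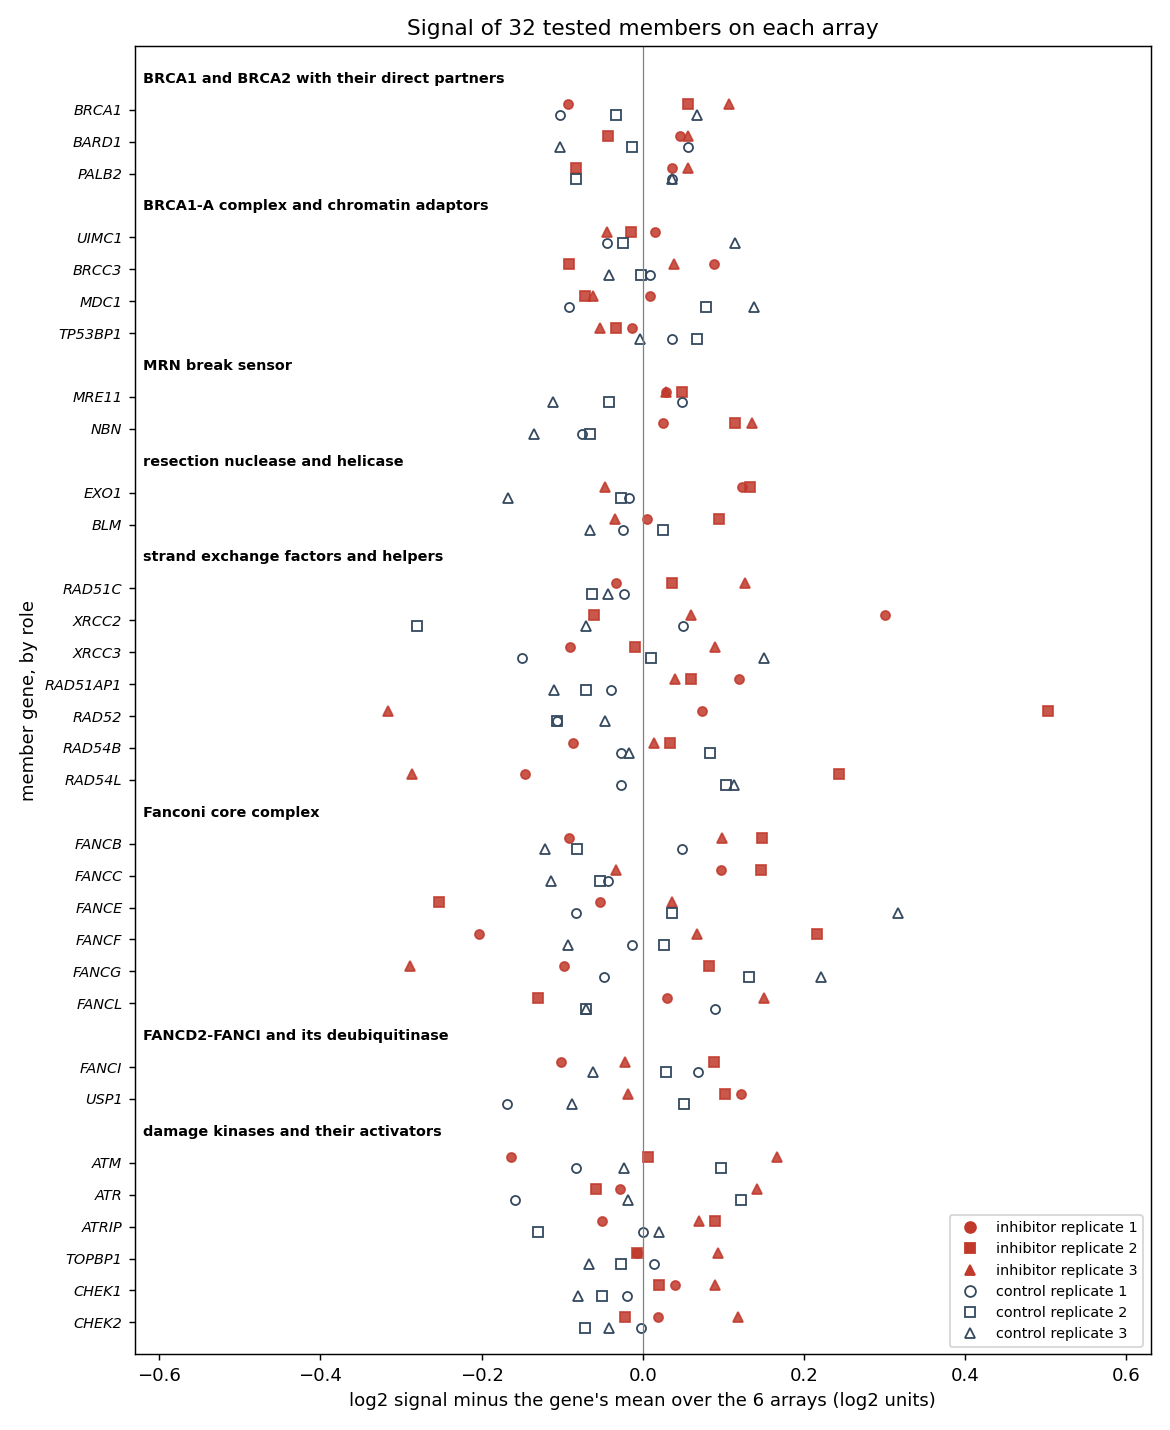
Each row is 1 tested member under its role, and each symbol 1 array, placed by its log2 signal minus the gene's mean over the 6 arrays (filled red, inhibitor; open blue, control, drawn below it). The rows of NBN, RAD51AP1, FANCC and CHEK1 have all red symbols to the right of the blue ones, TP53BP1 has them to the left, and RAD52 and RAD54L show the widest red spread.

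BRCA1, a ubiquitin ligase of break repair, was measured by 2 probes. Its brighter probe read 8.66, 8.81 and 8.86 log2 units on the inhibitor arrays, against 8.65, 8.72 and 8.82 on the control arrays. The groups overlapped almost throughout, with replicate 1 the lowest and replicate 3 the highest in both. The difference was 0.04 ± 0.08 (SE, n = 3 each, adjusted p = 0.923 in limma), with a 95% interval of −0.13 to 0.22. Left-out arrays moved it to between 0.00387 (inhibitor replicate 3 removed) and 0.101 (inhibitor replicate 1 removed). The second probe read 8.35, 8.42 and 8.47 on the inhibitor arrays, against 8.20, 8.34 and 8.35 on the control arrays. There the lowest inhibitor array equalled the highest control array to the digits shown, and the difference was 0.12 ± 0.08 (adjusted p = 0.800 with every probe tested on its own). Its interval reached 1.22-fold higher, and the intervals of both probes lay below a 1.5-fold rise.

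The genes that work beside BRCA1 lay close to 0. BARD1, its obligate partner in the ligase, read 9.41, 9.32 and 9.42 on inhibitor arrays, against 9.42, 9.35 and 9.26 on control arrays, a difference of 0.04 ± 0.07 (adjusted p = 0.923 in limma). PALB2, which joins BRCA1 to BRCA2, read 7.28, 7.16 and 7.30, against 7.28, 7.16 and 7.28, and differed by 0.00995. Its readings coincided almost array by array. BRIP1, a helicase bound by BRCA1, was above background on 1 inhibitor and 1 control array by its better probe and on none by the other, so its level is not known.

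The BRCA1-A complex, which binds ubiquitin marks at breaks, and the chromatin adaptors were mixed, with 1 of 4 genes above 0. UIMC1 (RAP80), the ubiquitin-binding subunit of the BRCA1-A complex, differed by −0.03 ± 0.07, and BRCC3, its deubiquitinase, by 0.02 ± 0.07. MDC1, which docks on phosphorylated H2AX, differed by −0.08 ± 0.08. TP53BP1, which holds back resection, read 8.33, 8.31 and 8.29 on the inhibitor arrays, against 8.38, 8.41 and 8.34 on the control arrays. Every inhibitor array lay below every control array, by as little as 0.01, and the difference of −0.06 ± 0.06 had an adjusted p of 0.844 in limma. It was −0.108 after median scaling.

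In the MRN break sensor NBN, the subunit that recruits ATM, had the smallest p of the members. It read 9.87, 9.96 and 9.98 on the inhibitor arrays, against 9.77, 9.78 and 9.71 on the control arrays. The groups did not overlap, and the difference was 0.19 ± 0.06 (1.14-fold, 95% interval 0.04 to 0.33, unadjusted p = 0.0164, adjusted p = 0.602 in limma). With any 1 array left out it ran from 0.167 to 0.222, and after median scaling it was 0.134. A second, dimmer probe of NBN gave 6.29, 6.47 and 6.53, against 6.28, 6.46 and 6.36, a difference of 0.06 ± 0.09 with overlapping groups. The nuclease subunit MRE11 differed by 0.07 ± 0.07 on its brightest probe. Its other probes went apart, at 0.17 ± 0.08 with groups that did not overlap and at −0.12 ± 0.09 with groups that did. RAD50, the ATPase subunit, was above background on no array by its only named probe, which does not show that its transcript was absent.

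Both resection enzymes lay above 0. EXO1, a nuclease that digests the broken end, read 9.68, 9.69 and 9.51 on the inhibitor arrays, against 9.54, 9.53 and 9.39 on the control arrays, with inhibitor replicate 3 inside the control range. Its difference was 0.14 ± 0.08 (adjusted p = 0.721 in limma), or 0.0903 without control replicate 3, and a second probe gave 0.04 ± 0.07. BLM, a helicase that unwinds ends and dissolves crossed strands, differed by 0.04 ± 0.07.

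Among the 7 strand exchange factors and helpers, 4 lay above and 3 below 0. RAD51AP1, which stimulates strand invasion, read 10.89, 10.83 and 10.81 on the inhibitor arrays, against 10.73, 10.70 and 10.66 on the control arrays. The groups lay apart, with a difference of 0.15 ± 0.06 (1.11-fold, unadjusted p = 0.0430, adjusted p = 0.635 in limma) that ran from 0.121 to 0.165 with 1 array left out and was 0.0865 after median scaling. XRCC2, which acts in strand exchange, had the highest estimate, 0.20 ± 0.11, from readings of 9.49, 9.13 and 9.25 on inhibitor arrays, against 9.24, 8.91 and 9.12 on control arrays. Those groups overlapped, and the difference was 0.103 without inhibitor replicate 1 and 0.113 without control replicate 2. After median scaling it was 0.146, below the 0.187 of RAD52, and without normalization between arrays 0.169, below the 0.211 of RAD52. A second, dimmer probe of XRCC2 gave −0.00152 ± 0.09. RAD51C, a partner of XRCC3, differed by 0.08 ± 0.07, and its further probes by 0.02 and −0.03, while XRCC3 differed by −0.00799.

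The annealing factor RAD52 and the motor protein RAD54L varied most within the inhibitor group. RAD52 read 5.06, 5.49 and 4.67 on the inhibitor arrays, against 4.88, 4.88 and 4.94 on the control arrays, so the inhibitor arrays spanned the control group on both sides. Its difference of 0.17 ± 0.17 became −0.03 without inhibitor replicate 2, 0.0758 in the deposited value table and 0.0837 without background correction. After median scaling it was 0.187, and without normalization between arrays 0.211. RAD52 was dim, with group means of 5.07 and 4.90 and a standard error over beads of 0.1245 on a typical array. RAD54L read 7.12, 7.51 and 6.98, against 7.24, 7.37 and 7.38, a difference of −0.13 ± 0.12 that ran from −0.285 to −0.0182 with 1 array left out. In both genes inhibitor replicate 2 was the highest array. RAD54B, the relative of RAD54L, differed by −0.02 ± 0.07.

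The Fanconi core complex held the lowest estimates as well as some of the higher ones, with 4 of 6 tested subunits above 0. FANCC read 5.27, 5.32 and 5.14 on the inhibitor arrays, against 5.13, 5.12 and 5.06 on the control arrays. The groups lay apart by 0.01 at their closest, and the difference was 0.14 ± 0.07 (adjusted p = 0.705 in limma), or 0.0594 in the deposited value table and 0.0643 without background correction. FANCG read 10.10, 10.28 and 9.91 on the inhibitor arrays, against 10.15, 10.33 and 10.42 on the control arrays, with 1 inhibitor array inside the control range. Its difference was −0.20 ± 0.11 (0.868-fold, adjusted p = 0.709 in limma), and −0.111 without inhibitor replicate 3, its lowest array. FANCE, which contacts FANCD2, read 8.50, 8.30 and 8.59, against 8.47, 8.59 and 8.87. Its difference of −0.18 ± 0.11 was −0.0666 without control replicate 3, the highest array. The subunits FANCB (0.10 ± 0.08, and 0.06 with its second probe) and FANCF (0.05 ± 0.10) and the ubiquitin ligase FANCL (0.03 ± 0.09) had overlapping groups. FANCM, the DNA translocase that anchors the complex, was above background on no array by its only named probe. That does not show an absent transcript.

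Downstream of the core complex, FANCI differed by −0.02 ± 0.07. USP1, which removes ubiquitin from FANCD2, read 9.84, 9.82 and 9.70 on the inhibitor arrays, against 9.55, 9.77 and 9.63 on the control arrays. Here 2 of the 3 inhibitor arrays lay above all control arrays, and the difference was 0.14 ± 0.08 (adjusted p = 0.724 in limma), or 0.0890 without control replicate 1, with 0.08 ± 0.07 on a second probe.

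All 6 damage kinases and activators lay above 0, against 50.0% of all genes, none of them past the test and by 0.0983 at most. CHEK1, the kinase that ATR activates, read 9.26, 9.24 and 9.31 on the inhibitor arrays, against 9.20, 9.17 and 9.14 on the control arrays. Its groups did not overlap, and the difference was 0.10 ± 0.06 (1.07-fold, adjusted p = 0.736 in limma), or 0.0466 after median scaling. CHEK2, the kinase that ATM activates, differed by 0.08 ± 0.07, and by −0.00219 on a second probe. ATRIP, the partner of ATR, gave 0.07 on each of 2 probes, and TOPBP1, which activates ATR, gave 0.05 ± 0.06. ATR and ATM were nearest to 0 of the 6, with ATR at 0.03 ± 0.09 and ATM at 0.00867 ± 0.09, and a further ATM probe gave 0.06 ± 0.08. The brighter ATM probe ran from −0.072 to 0.0911 with 1 array left out and was −0.0326 after median scaling. ATR ran from −0.039 to 0.102 with 1 array left out.

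**Figure D2:**
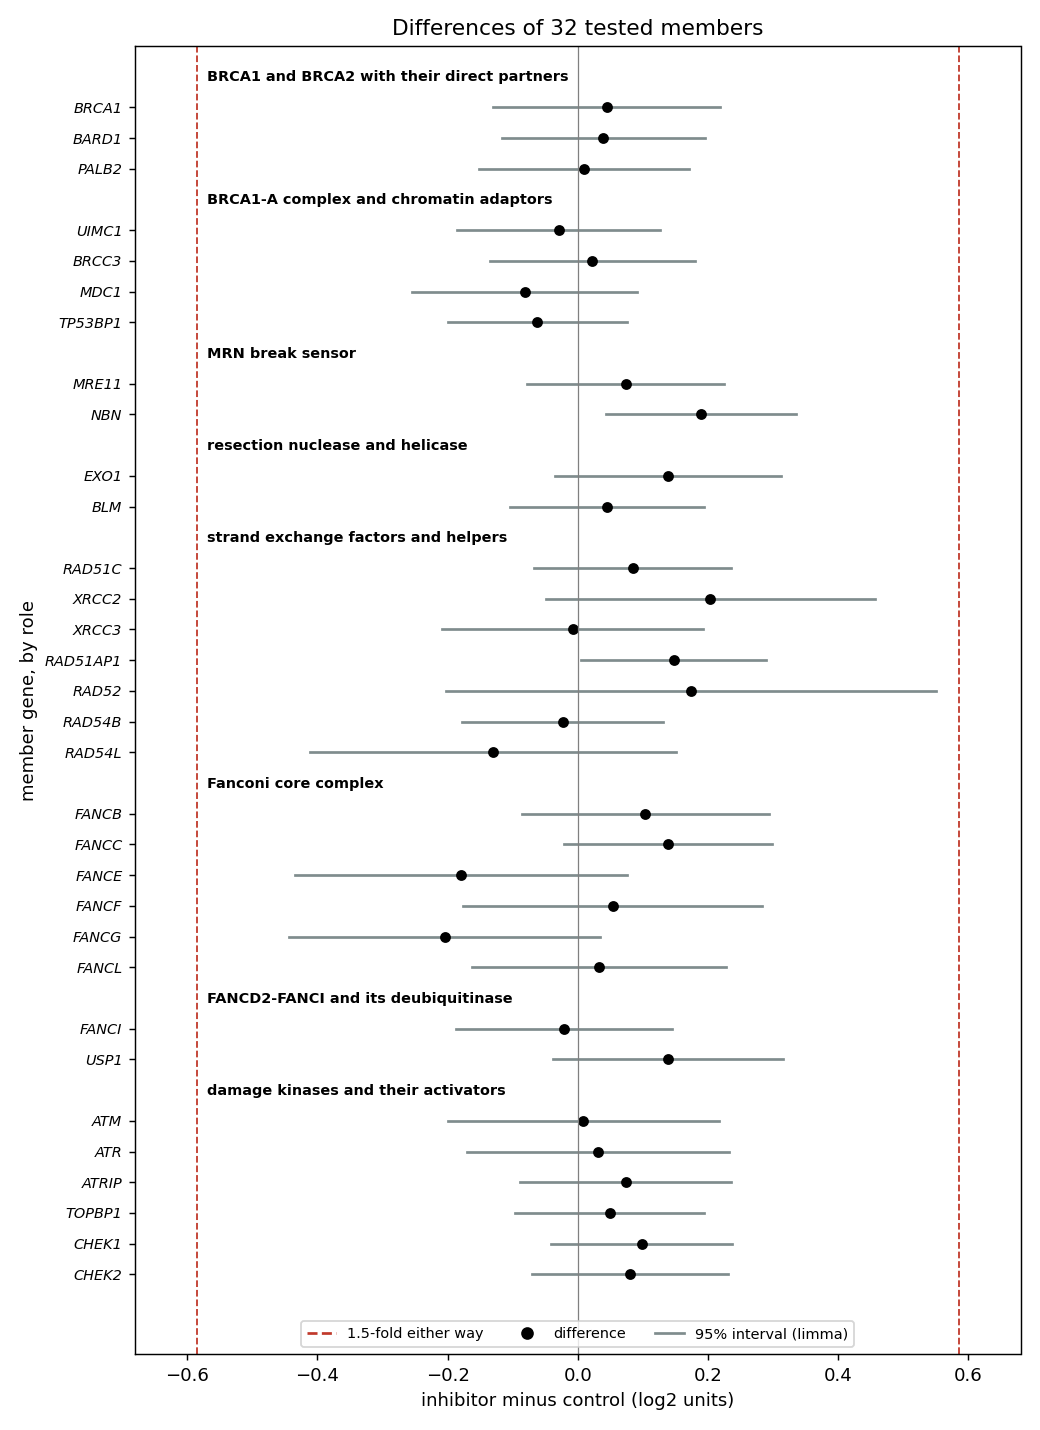
Points are the log2 differences, inhibitor minus control, of the 32 tested members by role, and bars their 95% intervals from limma with 3 arrays per group. All 32 bars lie between the dashed lines at 1.5-fold, and only those of NBN and RAD51AP1 leave out 0.

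Further probes tell how far a single reading can be relied on. In 11 members more than 1 probe was tested, giving 13 further probes. Of these, 9 had the sign of the brightest probe and 4 the opposite one, in CHEK2, MRE11, RAD51C and XRCC2. Member probes that failed the detection filter are not in this count, though some belong to bright genes. An untested RAD51C probe averaged 4.16 on inhibitor and 4.22 on control arrays, where its brightest probe averaged 10.76 and 10.67. Counted over 45 tested member probes, 32 lay above 0 and 0 passed the test. The probes of a gene can read different transcripts, and which ones was not examined.

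**Figure D3:**
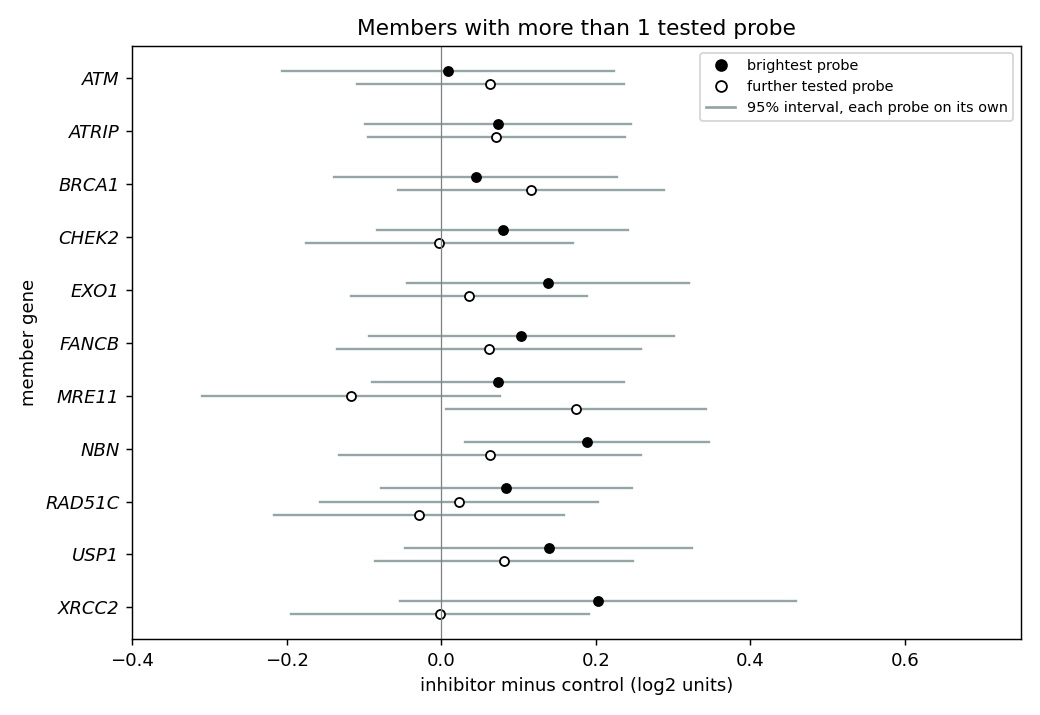
The 11 members with more than 1 tested probe are shown with the log2 difference, inhibitor minus control, of each probe (filled, brightest; open, further) and its 95% interval from the fit of every probe on its own. The intervals of all probes of a gene overlap, and the probes of MRE11 lie farthest apart, from −0.12 to 0.17.

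Other genes of these pathways showed no called difference in any of 7 lists. Other homologous recombination genes had 20 of 28 above 0 (71.4%) and a median of 0.0324, with RMI1, a partner of BLM, at 0.21 ± 0.09 and SLX1A, a nuclease subunit, at −0.18 ± 0.10. Other Fanconi genes had 7 of 13 above 0 and a median of 0.0103. In that list UHRF1, which also maintains DNA methylation, lay at 0.15 ± 0.06, and MAD2L2, a polymerase zeta subunit, at −0.14 ± 0.09. Other damage signalling genes had 9 of 17 above 0, with ETAA1, an ATR activator, at 0.18 ± 0.10 and the histone H2AX at −0.16 ± 0.10. End joining genes had 6 of 13 above 0, with LIG4, the ligase of that pathway, at 0.17 ± 0.07 and PAXX at −0.15 ± 0.07.

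Genes that respond to damage or mark the cell cycle were even in direction. Of the p53-regulated genes 6 of 12 lay above 0, with RRM2B, a ribonucleotide reductase subunit, at 0.17 ± 0.09 and SESN2 at 0.15 ± 0.12. S phase genes had 9 of 18 above 0 and a median of 0.0108, with the clamp PCNA at 0.16 ± 0.07 and the histone mRNA-binding protein SLBP at −0.15 ± 0.07. G2 and mitosis genes had 7 of 14 above 0 and a median of 0.00378, with KIF2C at −0.13 ± 0.08 and CDK1 at 0.10 ± 0.08. Over all 7 lists, 0 genes passed the adjusted threshold in limma. The unadjusted p in limma was under 0.05 in LIG4, UHRF1 and RMI1 alone. That made 7.69% of the end joining, 7.69% of the other Fanconi and 3.57% of the other homologous recombination genes. The share was 0% in each remaining list and 7.65% in all genes.

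The deviation of each gene from its own mean over the 6 arrays shows which arrays carried the members' position. Its median over the 32 members was 0.00901, 0.0372 and 0.0482 on the inhibitor arrays, against −0.0222, −0.0253 and −0.0441 on the control arrays. The groups did not overlap in this measure, with inhibitor replicate 1 closest to the controls. Taken singly, 13.0% of all genes had groups that did not overlap, but no such share was computed for medians of gene lists. No test was made of these medians, and nothing particular to the list follows from them. For S phase genes the medians were 0.000518, 0.0193 and 0.0154, against 0.0111, −0.0354 and −0.0115, and the groups overlapped. For other homologous recombination genes they were 0.0654, 0.00984 and −0.00702, against −0.00118, −0.0297 and −0.0131, again with overlap, and inhibitor replicate 1 was there the highest.

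**Figure D4:**
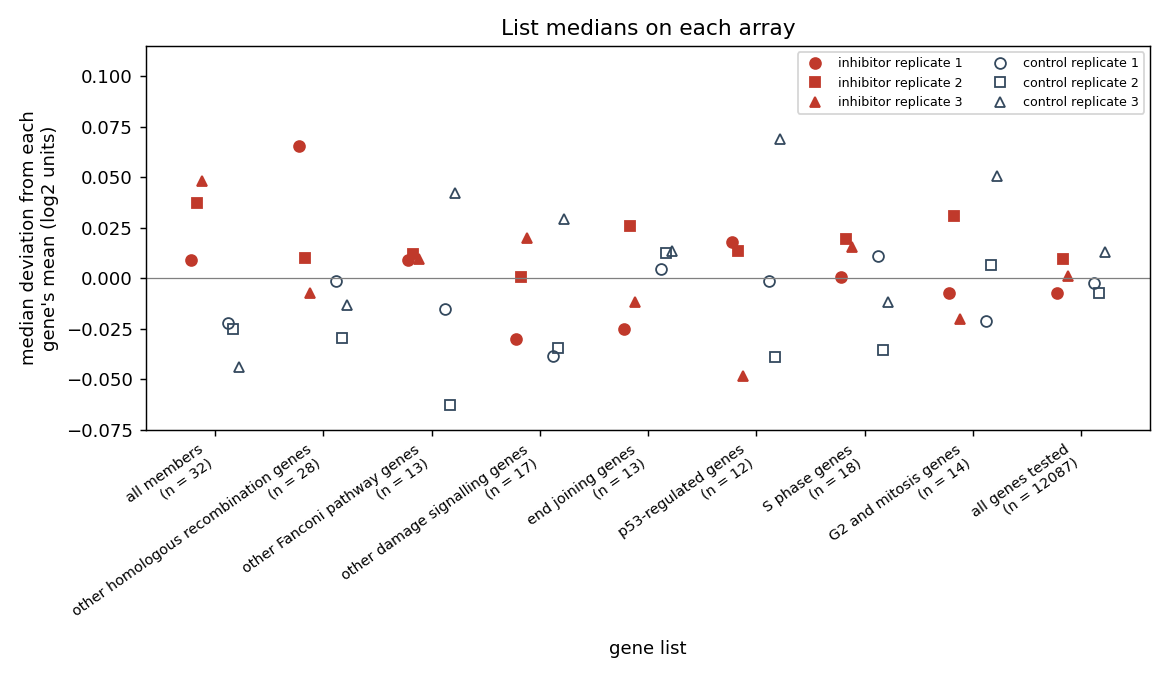
For each gene list the symbols give, on each array, the median over its genes of the log2 signal minus the gene's mean over the 6 arrays (filled red, inhibitor; open blue, control). The members' inhibitor arrays lie at 0.00901 to 0.0482 and their control arrays at −0.0441 to −0.0222, while in the other 7 lists shown and in all genes tested the groups overlap. The lists were not tested against each other.

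Many of these genes start back to back with another gene. In RefSeq (GRCh38.p14), 17 of 36 members with a promoter entry (47.2%) have a start of another gene on the opposite strand within 1000 bases, against 25.9% of 15843 protein-coding genes. BRCA1 and the noncoding NBR2 are the textbook pair, with starts 193 bases apart in this table, and no probe was named for NBR2. The letters of E2F sites, the factors that drive S phase genes (TTTGGCGC, TTTCGCGC, TTTCCCGC or TTTGCCGC on either strand), stood in the promoters of 6 of 36 members (16.7%) and of 5.40% of all these genes. A promoter here is the 300 bases from 250 before to 50 after a start. CCAAT on either strand stood in 50.0% and 42.1%. These are matches of letters and do not show binding.

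The promoter of CHEK2 is shown because both genes that start from it were measured and the estimates of their brightest probes had opposite signs, a choice made after the values were seen. The second CHEK2 probe, at −0.00219, had the sign of HSCB. It is given 5′ to 3′ on the minus strand, chr22:28741771-28742070 of GRCh38.p14, and the capitals run from the start of HSCB, which is read the other way, to the start of CHEK2.
CHEK2 promoter: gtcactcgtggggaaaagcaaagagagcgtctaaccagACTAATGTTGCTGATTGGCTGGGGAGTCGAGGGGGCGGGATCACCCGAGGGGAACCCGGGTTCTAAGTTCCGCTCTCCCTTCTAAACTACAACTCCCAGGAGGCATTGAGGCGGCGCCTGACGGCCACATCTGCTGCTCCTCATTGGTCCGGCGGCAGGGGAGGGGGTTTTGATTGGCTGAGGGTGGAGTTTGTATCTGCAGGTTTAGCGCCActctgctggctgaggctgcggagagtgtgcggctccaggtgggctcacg
HSCB, a co-chaperone of iron-sulfur cluster assembly, read 8.57, 8.56 and 8.33 on the inhibitor arrays, against 8.62, 8.67 and 8.84 on the control arrays. Its groups did not overlap, as in 13.0% of all genes, and it differed by −0.22 ± 0.09 (adjusted p = 0.624 in limma). CHEK2, at 8.04, 8.00 and 8.14 against 8.02, 7.95 and 7.98, differed by 0.08 ± 0.07. HSCB had 2 named probes, of which only the brightest that was tested is given. The difference between the genes was not tested.

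The other measured neighbours gave values on both sides of 0. NPAT, a coactivator of histone genes that starts 429 bases from ATM, read 6.46, 6.57 and 6.56 on the inhibitor arrays, against 6.60, 6.75 and 6.67 on the control arrays. Its groups lay apart, with a difference of −0.14 ± 0.07 (adjusted p = 0.681 in limma), while ATM lay near 0. DCTN5, a dynactin subunit opposite PALB2, differed by −0.16 ± 0.09 with overlapping groups. ANKRD49 opposite MRE11, MOSPD2 opposite FANCB and NBR1 opposite a second, distant start of BRCA1 each differed by 0.03, FERRY3 opposite RAD51AP1 by 0.00279, ZFYVE21 opposite XRCC3 by −0.04 and MAP1A opposite TP53BP1 by −0.06.

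The spread over beads and the spread between replicates were set side by side as measures of error. For a typical member the spread of beads gave a standard error of 0.0600 log2 units on 1 array, and the spread between replicates (SD) was 0.0789. In FANCG alone the SD between replicates exceeded the bead error by more than 3 times (3.34), followed by XRCC2 at 2.87 and RAD54L at 2.60. It was below the bead error in TP53BP1, TOPBP1, FANCC, CHEK1, RAD51AP1, FANCI and MRE11, at 0.511 to 0.993 times. Standard errors of the differences ran from 0.0612 for TP53BP1 to 0.167 for RAD52.

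**Figure D5:**
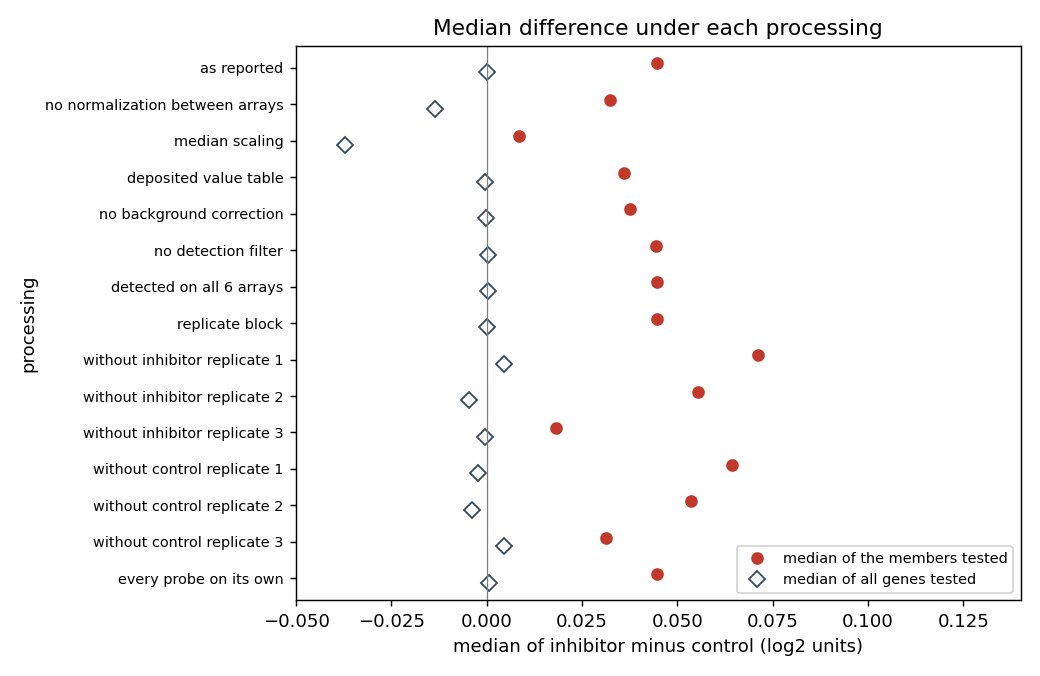
Median log2 difference, inhibitor minus control, of the members tested (red circles) and of all genes tested (open blue diamonds) as reported and under 14 other ways of processing or choosing arrays. The red circles stay above the blue diamonds throughout, from 0.00837 after median scaling to 0.0711 without inhibitor replicate 1.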

How the data were processed

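Per the file headers, the deposited files give for every probe on an array its mean bead intensity (linear, unnormalized), bead standard deviation, bead count and a detection fraction between 0 and 1 that grows with brightness. Subtracting that from 1 gave the detection p-value. BeadStudio is named in the submitters' processing notes; no genome build is named. The authors' deposited value table holds intensities put on 1 distribution with a median of 47.2 on every array, linear and not turned in direction. Bead addresses were paired with probe names by their ranks on the 6 arrays (48803 of 48803). Of these probes, 28098 had 1 gene in GEO's platform annotation, 13 several and 20692 none.

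Signals were corrected and quantile normalized with neqc (limma 3.58.1, R 4.3.3, offset 16) on a log2 scale. Probes were kept with a detection p under 0.05 on at least 3 of 6 arrays (21349 probes), and the brightest probe stood for each gene (12087). Groups were compared with lmFit and eBayes, 2-sided, Benjamini-Hochberg over all genes, threshold 0.05, as tested on simulated data. The members, lists and alternatives were chosen with earlier results of these data known. Named are all members, their opposite-strand neighbours within 1000 bases and, of each further list, up to 4 genes that passed the test or, where none did, the 2 with the greatest absolute difference. Alternatives were other normalizations, the value table, other detection filters, a replicate block, each probe on its own and each array left out. The number of arrays limits the precision. Scan dates were not used here.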

Additional observations from a re-analysis of the deposited data

How the results depend on the processing

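No member passed the adjusted threshold under any of the 14 alternatives, where the lowest adjusted p of a member was 0.442 (the deposited value table). Over all genes, limma called 0 as reported, 5 with unnormalized arrays and 7 with arrays scaled to a common median, none of them members, and 0 under the other 12; the cause was not tested. The members' median of 0.0446 was 0.00837 after median scaling, where that of all genes was −0.0373, and ran from 0.0182 to 0.0711 with 1 array left out. BRCA1 stayed above 0 throughout, from 0.00338 after median scaling to 0.117 on its second probe. Of the 32 members, 20 kept their sign in every fit on 1 probe per gene, 12 turned with some array left out and 5 under another alternative. With the replicate number as a block the members' median was 0.0446, BRCA1 differed by 0.0445, 0 genes were called and the lowest adjusted p of a member was 0.639, so it changed no call. Deviations of same-numbered arrays from their group means correlated at 0.0199, 0.00316 and −0.00599, and no array correlated best with its own number. The values thus show no pairing by number, while the labels do not say whether same-numbered arrays were handled together. With 3 arrays per group, the unadjusted 95% interval of a typical member reached 1.12-fold to each side, and the adjusted test asks for more, since in limma the 1.14-fold of NBN had 0.602 as its adjusted p.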
